A study of Gallus gallus with 2 samples.

Results

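The endoplasmic reticulum (ER) chaperones and the transcription factor XBP1 were examined in DT40, a B lymphoma line from the chicken bursa of Fabricius that is widely used for gene targeting. The set held 10 genes (HSPA5, HSP90B1, CALR, CANX, PDIA3, PDIA4, PDIA6, DNAJB9, HYOU1 and XBP1), picked by gene symbol with earlier results of these data known. It took in every probe set that the platform's annotation assigns to 1 of these symbols, which gave 19 probe sets of 38535 on the array and 10 genes of 13051. There were 2 arrays, 1 per genotype. The wild-type array came from a wild-type DT40 clone. The knockout array came from a clone in which the H2A.Z-2 gene was permanently removed and H2A.Z-1, the other gene for this histone variant, came only from a transgene that tetracycline switches off. Its cells had been kept in tetracycline for 3 days, at 2 mg/ml as the labels give it. The sample title names the drug for the knockout array alone, while the protocol that describes it is attached to both samples, so it is not clear whether the wild-type culture was treated. If it was not, drug and genotype cannot be told apart. The lasting loss of H2A.Z-2 and the 3-day loss of H2A.Z-1 cannot be told apart either. Both cultures grew in the same medium, which held 2-mercaptoethanol, a reducing agent.

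Proteins bound for the cell surface, for secretion or for the secretory organelles are folded in the ER. HSPA5, also known as BiP, binds unfolded chains, J-domain proteins such as DNAJB9 hand chains to it, and HYOU1 helps it release its nucleotide. Calnexin and calreticulin hold glycoproteins by their sugars while protein disulfide isomerases form and reshuffle disulfide bonds. When unfolded chains accumulate, the sensors IRE1 (gene ERN1), PERK (EIF2AK3) and ATF6 start the unfolded protein response. IRE1 splices XBP1 mRNA, and the spliced form encodes a factor that raises many ER genes and that plasma cells need in order to secrete antibody. The array signals do not separate spliced from unspliced XBP1 mRNA here, since the positions of the probes were not analysed.

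Each value is a signal in arbitrary units from the MAS5 program, and each ratio is knockout minus wild type on the log2 scale. A gene is given by its brightest probe set, with every probe set printed for the 10 genes and, for other genes with several, the other value or the range. Signals of different probe sets are not compared as amounts of RNA, and sums of marker signals serve only to tell bright sets from dim ones. With 1 array per group there is no replicate spread and no test, so no difference has a replicate check. Genes are counted past 1.5-fold, a log2 ratio of 0.58. They are also counted by direction alone, which takes in ratios as small as the probe error. The nearest available error comes from 235 genes with 2 bright probe sets (mean signals above 2048). Their log2 ratios had a standard deviation (SD) of 0.22 between probe sets of the same gene. In 36.2% of these genes the 2 ratios had opposite signs. For 682 genes whose dimmer probe set lay between 256 and 1024 the SD was 0.34. Each SD is that of 1 ratio, and a difference between 2 ratios has a larger error. These values hold the disagreement of probes and not the spread between cultures or clones. Fewer cells with a transcript and less of it per cell cannot be told apart.

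The arrays were scaled alike, with trimmed means of 500.2 on each. Both targeted genes followed their labels: H2A.Z-1 (H2AFZ) had a signal of 27331 in wild-type cells and 387 in knockout cells, and H2A.Z-2 (H2AZ2) had 18244 and 17.6, under the signal floor of 58.3. The ratio of 3′ to 5′ signal, a sign of RNA length, was 1.03 in wild-type cells and 1.07 in knockout cells for GAPDH, 1.23 and 1.46 for the elongation factor control, and 1.13 and 1.95 for ACTB; its part in the results was not tested. Of 10 B cell marker names 9 were measured, among them the receptor component CD79B at 8827 in wild-type cells and 7718 in knockout cells. These 9 had a median log2 ratio of -0.63, and their summed signal went from 33295 to 24648. Of them 5 were at least 1.5-fold lower (15.9% of all measured genes were) and 0 were 1.5-fold higher (12.4%). CD79B had the smallest ratio of the 9 in size. Markers of other cells were dim, with summed signals of 246 and 412 for 3 myeloid and thrombocyte genes, 171 and 364 for 4 erythroid genes and 677 and 836 for 5 stromal genes. The 4 T cell genes summed to 12651 and 4322, nearly all of it CD3D (12407 and 4162). The part of these markers in the results was not tested.

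All 10 genes were detected, since each of the 19 probe sets exceeded the floor in both genotypes. The chaperones as a whole stood close to wild type. Of the 10 genes 9 were higher in the knockout (8 after quantile normalization and 7 after loess removed a trend with brightness) and CALR was lower, while 51.3% of all 9486 measured genes were higher. Only DNAJB9 passed 1.5-fold, which 12.4% of measured genes did on the higher side, and none passed 1.5-fold on the lower side, where 15.9% did. So 1 of 10 was near the background share. The median log2 ratio was 0.21, against 0.02 over all measured genes, and it was 0.13 after quantile normalization and 0.11 after loess. Among probe sets 17 of 19 were higher (50.7% of all measured probe sets) and 3 of 19 at least 1.5-fold higher (13.1%).

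**Figure D1:**
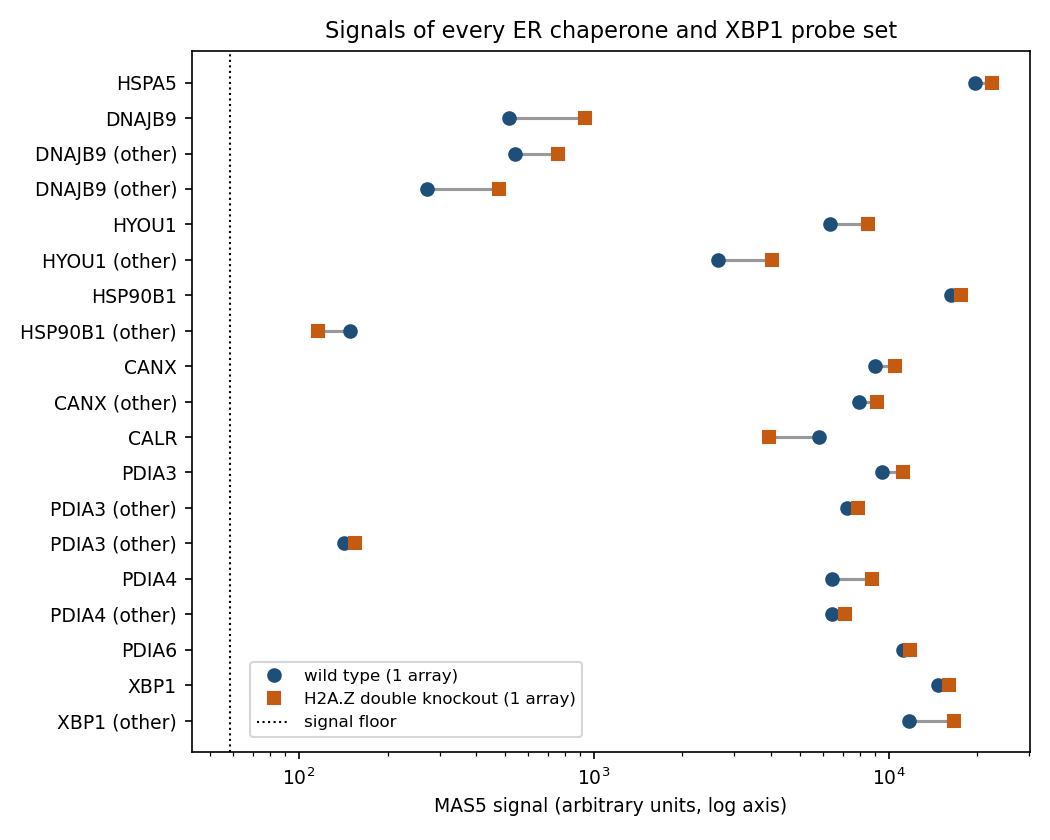
MAS5 signal (arbitrary units, log axis) of each of the 19 probe sets on the wild-type array (circles) and on the knockout array (squares), 1 array each, with the signal floor as a dotted line. The pairs of points lie close together for most genes, are farthest apart for DNAJB9, and are in reverse order for CALR and for the dim probe set of HSP90B1.

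The machinery of the ER Hsp70 system held the highest ratio of the set. HSPA5, the central chaperone and the usual measure of ER stress, had a signal of 19681 in wild-type cells and 22373 in knockout cells. That is 1.14-fold higher, a log2 ratio of 0.18 that is smaller than the SD between bright probe sets, and it rests on 1 probe set. DNAJB9, a J-domain partner of HSPA5 that also holds IRE1 inactive and is a well-known XBP1 target, had a signal of 517 in wild-type cells and 935 in knockout cells. It was therefore 1.81-fold higher, with a log2 ratio of 0.86 that exceeded the ratios of 94.3% of measured genes.

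The other probe sets of DNAJB9 went the same way. One had 273 in wild-type cells and 477 in knockout cells (1.75-fold), and another 542 and 758 (1.40-fold). All 3 knockout values were above the wild-type value of the same probe set, although the first 2 were designed from the same sequence and are not separate evidence. The last of them did not reach 1.5-fold.

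HYOU1, a large relative of Hsp70 that acts as a nucleotide exchange factor for HSPA5, was higher on each of its probe sets. Its brightest had a signal of 6343 in wild-type cells and 8541 in knockout cells, 1.35-fold higher (log2 ratio 0.43). The other, from a separate sequence, had 2644 and 4035, 1.53-fold higher (0.61). HYOU1 thus lay on either side of 1.5-fold depending on the probe set.
Set against HSPA5, the log2 ratio of DNAJB9 was higher by 0.67 and that of HYOU1 by 0.24. The SD between probe sets is that of 1 ratio and understates the error of these gaps. By the brightest probe sets the first gap is past 1.5-fold and the second is not. The DNAJB9 probe set that was 1.40-fold higher had a log2 ratio of 0.48, so its gap to HSPA5 is under 1.5-fold. Of the 682 dimmer pairs of probe sets, 23.8% differed by more than 1.5-fold within 1 gene.

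HSP90B1, the Hsp90 of the ER that folds Toll-like receptors and integrins, had a signal of 16332 in wild-type cells and 17552 in knockout cells, 1.07-fold higher (log2 ratio 0.10, but -0.06 after quantile normalization). Its second probe set was dim and went the other way, with 149 in wild-type cells and 116 in knockout cells (log2 ratio -0.36). HSP90B1 was the only gene of the set whose probe sets fell on both sides of 0.

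The lectin chaperones, which share the job of holding glycoproteins, went in opposite directions. CANX, the membrane-bound calnexin, had a signal of 8986 in wild-type cells and 10518 in knockout cells, 1.17-fold higher. Its second probe set was almost equal in ratio, with 7929 in wild-type cells and 9161 in knockout cells (log2 ratios of 0.23 and 0.21). CALR, the soluble calreticulin, which also buffers calcium in the ER lumen, had a signal of 5821 in wild-type cells and 3946 in knockout cells.

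CALR was thus 1.48-fold lower, a log2 ratio of -0.56, just short of 1.5-fold. The log2 ratio of CALR was 0.79 below that of CANX (a difference of -0.79), which is past 1.5-fold. Of the bright pairs of probe sets, 8.5% differed by more than 1.5-fold within 1 gene. CALR has 1 probe set here, of a type (_s_at) whose probes can match more than 1 transcript or gene, so no second probe set could be compared. This limit is not particular to CALR. Of the 19 probe sets 9 were of such shared types, among them the brightest of DNAJB9, HYOU1, PDIA4, CANX and PDIA3.

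The disulfide isomerases of the set were higher by less than 1.5-fold on every probe set. PDIA3, which works with calnexin and calreticulin on glycoproteins, had a signal of 9508 in wild-type cells and 11218 in knockout cells, 1.18-fold higher (log2 ratio 0.24). Its other probe sets had 7225 and 7849 (0.12) and, on a dim one, 142 and 155 (0.13). All 3 were higher in the knockout by less than 1.2-fold.
PDIA4, an isomerase found with HSPA5 in large chaperone complexes, had a signal of 6441 in wild-type cells and 8806 in knockout cells, 1.37-fold higher (0.45). Its second probe set, designed from the same sequence, had almost the same wild-type signal of 6450 but 7097 in the knockout, only 1.10-fold higher (0.14). The gap between these probe sets, within 1 gene and 1 sequence, was larger than the whole ratio of HSPA5, HSP90B1, PDIA3 or PDIA6.
PDIA6, which is known to attenuate signalling by IRE1 and PERK, had a signal of 11197 in wild-type cells and 11859 in knockout cells on its single probe set. At 1.06-fold higher (0.08, and -0.01 after loess) it was the closest to wild type as deposited, though not after loess or quantile normalization.

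XBP1 itself had a signal of 14658 in wild-type cells and 16083 in knockout cells, 1.10-fold higher (log2 ratio 0.13). Its second probe set, of the shared type, had 11734 in wild-type cells and 16695 in knockout cells, 1.42-fold higher (0.51). Both were higher in the knockout, and neither passed 1.5-fold. The ratios of the XBP1 probe sets differed from each other by more than the SD of 1 ratio between bright probe sets, but by less than 1.5-fold.

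**Figure D2:**
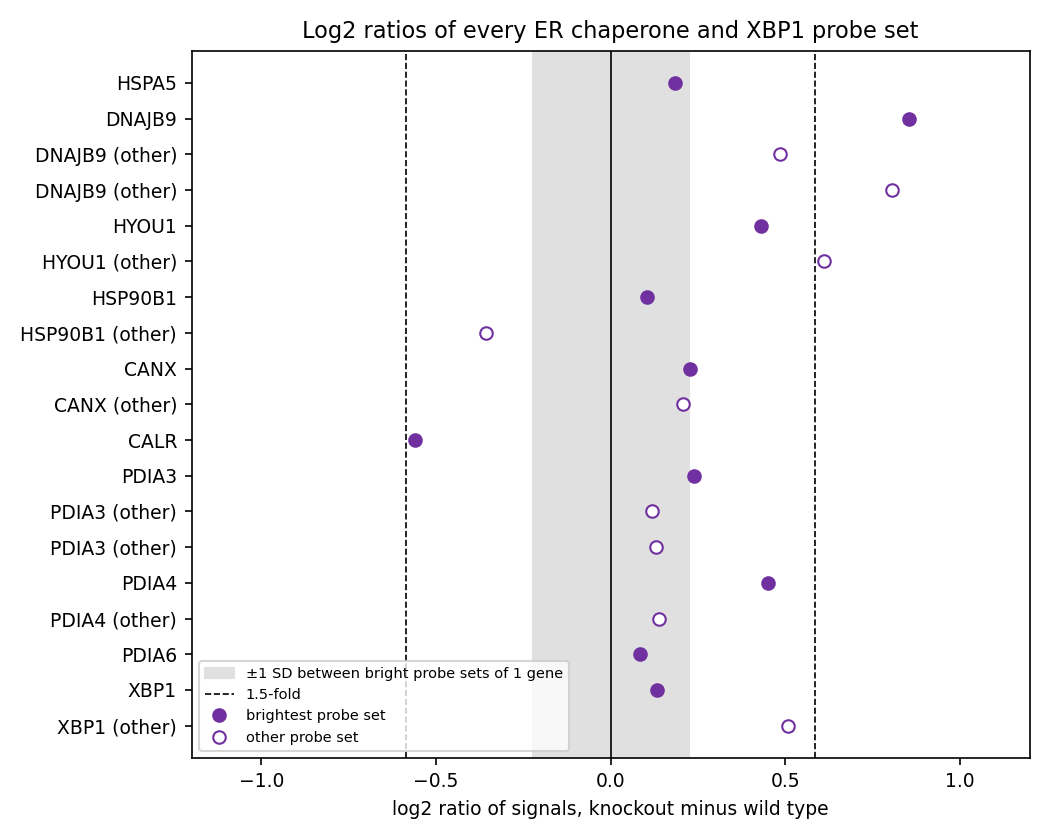
Log2 ratio (knockout minus wild type) of each of the 19 probe sets; filled points are the brightest probe set of a gene, open points the others, the grey band is 1 SD (0.22) between bright probe sets of a gene and dashed lines mark 1.5-fold. The 3 probe sets beyond the right dashed line belong to DNAJB9 and HYOU1.

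The ratios of the genes ran from -0.56 to 0.86. A range over 10 genes cannot be judged by the SD of 1 ratio between bright probe sets, and its upper end, DNAJB9, was dimmer. By their brightest probe set, 4 of the 10 genes had ratios within 1 SD of 0 in either direction. These genes, HSPA5, HSP90B1, PDIA6 and XBP1, were bright: the brightest probe sets of 9 genes had signals of at least 3946 on both arrays, and DNAJB9 was the exception. The arrays also had a trend with signal, such that bright probe sets leaned higher in the knockout. The loess trend over all detected probe sets was 0.12 at the signal of HSPA5 and 0.11 at that of HSP90B1. It was 0.10 at that of XBP1 and 0.09 at that of PDIA6. By the brightest probe set, the trend was as large as most of the ratio of each of these 4 genes, or larger. Whether the trend came from the arrays or from the cells was not tested. The second probe set of XBP1, at 0.51, exceeded the trend of 0.10 at its signal. At the signal of DNAJB9 the trend was -0.13. With this trend taken out, 7 of 10 genes were higher, the ratio of HSPA5 was 0.07, that of XBP1 0.03, and those of HSP90B1 and PDIA6 were marginally below 0, while DNAJB9 was at 0.99, HYOU1 at 0.36, PDIA4 at 0.38 and CALR at -0.61, past 1.5-fold.

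**Figure D3:**
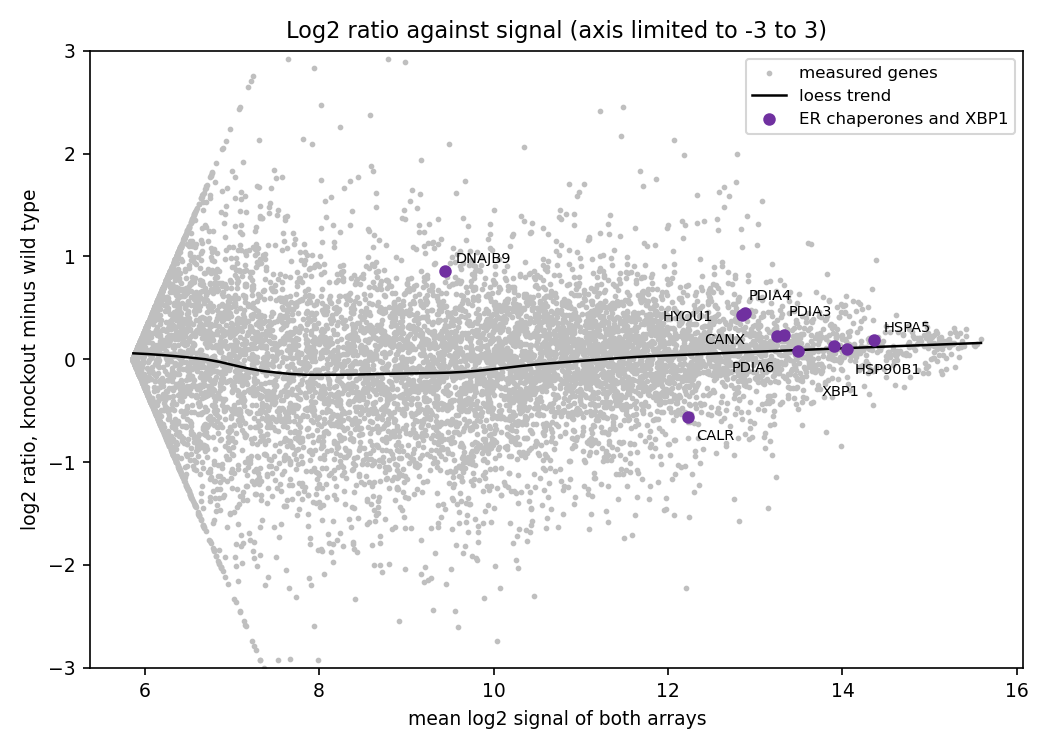
Log2 ratio (knockout minus wild type) against mean log2 signal for all measured genes (grey), with the loess trend (line) and the 10 ER genes (large points); 16 genes lie outside the axis. Most chaperones sit at the bright end near the trend, DNAJB9 lies well above it at a lower signal and CALR below it.

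The 10 genes lie on 9 chromosomes of the chicken reference assembly GRCg7b (used for names and gene order only), with HSP90B1 and DNAJB9 both on chromosome 1. Of the 20 protein-coding genes next to them on either side 13 were measured, 6 higher and 7 lower in the knockout, with a median log2 ratio of -0.09. Among all measured genes 51.3% were higher and 48.7% lower. At least 1.5-fold, 1 neighbour was higher (12.4% of all measured genes) and 3 were lower (15.9%). The neighbour of CALR that was measured, FARSA, a subunit of phenylalanyl-tRNA synthetase, had a log2 ratio of -0.59, close to that of CALR. Beside XBP1, CCDC117 was lower (-1.21) and ZNRF3 higher (0.43). These 3 neighbours were chosen after their values were seen.

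The sensors and factors upstream of the chaperones were spread more widely than the chaperones. Several of them were dim, such as MBTPS1, MBTPS2, ATF6B and BFAR. The SD between probe sets was larger for dimmer pairs (0.34) than for bright ones (0.22). The part of brightness in this spread was not tested. Of 19 names 14 were on the array and 13 measured; 4 passed 1.5-fold on the higher side (12.4% of all measured genes did) and 3 on the lower side (15.9%), and the median log2 ratio was 0.39. ATF6, CREB3, DDIT3, PPP1R15A and TRIB3 were not found by name and were not analysed here. EIF2AK3, which encodes the sensor PERK, had a signal of 327 in wild-type cells and 993 in knockout cells. It was 3.04-fold higher on a single probe set, the highest ratio of this list.
ATF4, the factor whose translation PERK signalling favours, had a signal of 16316 in wild-type cells and 26118 in knockout cells, 1.60-fold higher, with its second probe set at a log2 ratio of 0.94. PPP1R15B, a phosphatase subunit that reverses the phosphorylation made by PERK, had 2281 and 4279, 1.88-fold higher. EIF2AK3 and PPP1R15B had 1 measured probe set each.

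ERN1, the IRE1 gene whose product splices XBP1 mRNA, had a signal of 1571 in wild-type cells and 2110 in knockout cells, 1.34-fold higher. Its 3 probe sets, however, ranged from -0.53 (a bound, under the floor in knockout cells) to 0.43. ATF6B, a relative of ATF6, was dim, with 196 in wild-type cells and 257 in knockout cells (log2 ratio 0.39), and its other probe set, at 0.91, passed 1.5-fold.
The Golgi proteases that cut ATF6 and the SREBP factors differed in direction. MBTPS1 had 155 in wild-type cells and 235 in knockout cells, 1.52-fold higher. MBTPS2 had 180 in wild-type cells and 32.3, under the floor, in knockout cells, at least 3.10-fold lower. Its other probe set, at -0.83, was also under the floor in knockout cells, so that ratio is a bound too. CREB3L2, an ER-anchored factor related to ATF6, had 3353 and 1398, 2.40-fold lower, while its 6 probe sets ranged from -2.37 to 0.47. The subunits of NF-Y, which binds ER stress elements together with ATF6, were split. NFYA was at a log2 ratio of 0.49 (another probe set at -0.30, a bound), NFYC at -0.36 (probe sets from -0.36 to 0.12) and NFYB at -0.93 (another at -0.74). The ER membrane regulators TMBIM6 and BFAR had ratios of 0.31 and -0.49.

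In the list of thiol oxidation and proline isomerases 11 of 14 measured genes had ratios under 0 (48.7% of all measured genes did), of which 3 passed 1.5-fold (against 15.9%), and 1 gene passed it on the higher side (against 12.4%); the median log2 ratio was -0.24. TXNDC5, a disulfide isomerase abundant in plasma cells, had a signal of 7975 in wild-type cells and 3421 in knockout cells, 2.33-fold lower on its single probe set. ERP29, a luminal folding factor, had 8580 and 4885, 1.76-fold lower, with another probe set at a log2 ratio of -1.56.
The oxidases that recharge the isomerases went apart. ERO1A had a signal of 1525 in wild-type cells and 2538 in knockout cells, 1.66-fold higher, with its dim second probe set at 0.53. ERO1B had 353 and 146, 2.43-fold lower, with its second at -0.75. TMX3, a membrane-bound isomerase, was at a log2 ratio of -0.46 on its brightest probe set, while its others, at -1.39 and -1.32, passed 1.5-fold. P4HB, the founding member of the isomerase family, chosen after its values were seen, had a brightest probe set near wild type (19335 and 18049) and another that was 1.98-fold lower.

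The list of other ER co-chaperones and nucleotide exchange genes had a median of 0.06 over 10 measured genes. The median was -0.002 after loess or quantile normalization. This list leaves out DNAJB9 and HYOU1, whose log2 ratios were 0.86 and 0.43, so it does not cover all partners of HSPA5. DNAJC3, which restrains PERK, was at a log2 ratio of 0.33 (another probe set at -0.14), SDF2L1 at 0.30, the translocon J-protein SEC63 at 0.14 (another at 0.65) and SDF2 at -0.14. SIL1, like HYOU1 a nucleotide exchange factor for HSPA5, had a signal of 592 in wild-type cells and 353 in knockout cells, 1.68-fold lower, with a dim second probe set at 0.12. By the brightest probe set SIL1 was the only one of the 10 past 1.5-fold. Over all measured genes 15.9% were at least 1.5-fold lower and 12.4% higher. By that probe set HYOU1 and SIL1 stood on opposite sides of wild type.

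The glycoprotein folding cycle, in which CALR, CANX and PDIA3 act, had 3 genes higher and 3 lower among 6 measured, with a median of 0.13. Over all measured genes 51.3% were higher and 48.7% lower. Past 1.5-fold, 0 of the 6 were higher (12.4% of all measured genes) and 1 was lower (15.9%). UGGT1, which tags unfinished glycoproteins so that the lectins bind them again, was at -0.02 (probe sets from -0.39 to 0.63) and its relative UGGT2, dim, at 0.55 (another at 0.31). The mannose-trimming EDEM1 had a ratio of 0.30 (another probe set at 0.33) and EDEM3 of 0.27 (probe sets from -0.15 to 0.29), and MAN1B1, which trims mannose ahead of degradation, was 1.60-fold lower (1325 in wild-type cells and 828 in knockout cells, with another probe set at -1.25).
For ER-associated degradation, the route that returns misfolded chains to the proteasome, 8 of 16 measured genes were higher and 8 lower. Of all measured genes 51.3% were higher and 48.7% lower. The median of the list was -0.02, and 0.04 after loess. Past 1.5-fold, 2 of its genes were higher and 2 lower, near the shares of all measured genes (12.4% and 15.9%). UBE2J1, its membrane-anchored ubiquitin-conjugating enzyme, had 2116 in wild-type cells and 3626 in knockout cells, 1.71-fold higher, with another probe set at 0.27. FAF2, which recruits the extracting ATPase, was 1.66-fold higher. HERPUD2 was 2.44-fold lower (2141 and 878), UBXN4 1.56-fold lower (probe sets from -1.05 to -0.64) and DERL1, of the proposed export channel, 1.36-fold lower.

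Genes that bring chains into the ER and carry them out were close to wild type. In the translocon, signal peptidase and oligosaccharyltransferase list 15 of 25 genes were higher (51.3% of all measured genes were), and the median was 0.05. None of them was 1.5-fold higher, against 12.4% of all measured genes, and 1 was at least 1.5-fold lower, against 15.9%. SPCS3 of the signal peptidase (0.54) and SEC61G of the channel (0.53) were the highest. STT3B, a catalytic subunit that attaches sugars, was 1.65-fold lower (probe sets from -0.90 to -0.12). Next lowest were the signal peptidase genes SEC11C (-0.56) and SPCS1 (-0.43, with probe sets from -1.58, a bound, to 0.77). In the list of ER exit and retrieval 11 of 17 were higher, against the same 51.3%, and the median was 0.06. Past 1.5-fold, 0 of the 17 were higher (against 12.4%) and 1 was lower (against 15.9%). Of its coat genes SEC24B was 1.77-fold lower, with another probe set at -0.53. The probe sets of the others went both ways, from -0.53 to 0.47 for SEC23B, from -0.81 to 0.41 for SEC24D and from -0.35 to 0.30 for SEC24A. KDELR3, a receptor that returns escaped chaperones to the ER, was under the floor in wild type and at least 1.28-fold higher.

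The ER calcium store, on which calreticulin and the other chaperones depend, had a median of 0.09 over 11 genes. Past 1.5-fold, 2 of the 11 were higher (12.4% of all measured genes) and 1 was lower (15.9%). Among the channels that release calcium, ITPR2 was 1.82-fold higher (another probe set at 0.61) and ITPR1 1.64-fold higher (another at 0.28), while ITPR3, dim, had a log2 ratio of 0.27. STIM1, which senses an empty store, had a signal of 1050 in wild-type cells and 587 in knockout cells, 1.79-fold lower. Its second probe set was at -0.92, a bound, while its relative STIM2 was at 0.35. Among factors of antibody secretion, where XBP1 is best known, 5 genes were measured with a median of -0.10. It was -0.24 after loess, -0.23 after quantile normalization and 0.05 when the median signals of the arrays were aligned. Past 1.5-fold, 0 of the 5 were higher (against 12.4%) and 2 were lower (against 15.9%). JCHAIN, which links antibody chains, was bright and near wild type (30907 and 28754), as was IRF4 (log2 ratio 0.09). POU2AF1, a coactivator of immunoglobulin genes, was 1.59-fold lower (another probe set at -1.71), ELL2 1.69-fold lower on a dim probe set, and SDC1, the plasma cell surface marker, at 0.47.

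**Figure D4:**
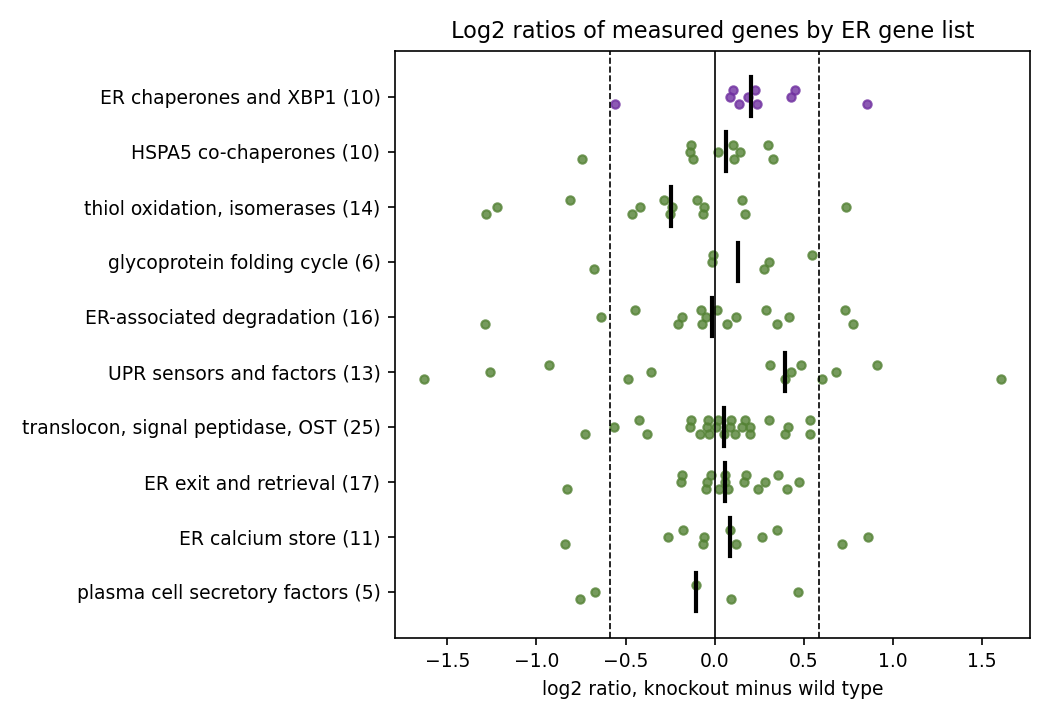
Log2 ratio (knockout minus wild type) of each measured gene in the 10 ER gene lists, 1 point per gene, with the median as a black bar, 1.5-fold as dashed lines and the number of genes in brackets. The chaperones and XBP1 have 9 of 10 points to the right of 0, and the thiol oxidation list has 11 of 14 to the left. The sensors, several of them dim, spread from -1.63 (a bound) to 1.60.

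Across 11 settings, the reported one among them, DNAJB9 was at least 1.5-fold higher in each (0.79 to 1.01). CALR was lower in each of the 10 that gave it a value (-0.62 to -0.41), past 1.5-fold in 2 of them. Not all of these settings are checks. Those that changed only the floor or the rule for being measured could not alter these ratios. The median over probe sets could not alter that of CALR. PDIA4 ranged from 0.14 to 0.60 and HYOU1 from 0.35 to 0.61, each past 1.5-fold in 1 setting. HSP90B1 ranged from -0.13 to 0.26, below 0 in 3 settings, and PDIA6 from -0.01 to 0.23, below 0 in 1. HSPA5 ranged from 0.07 to 0.34 and XBP1 from 0.01 to 0.32, both under 1.5-fold in each setting.

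**Figure D5:**
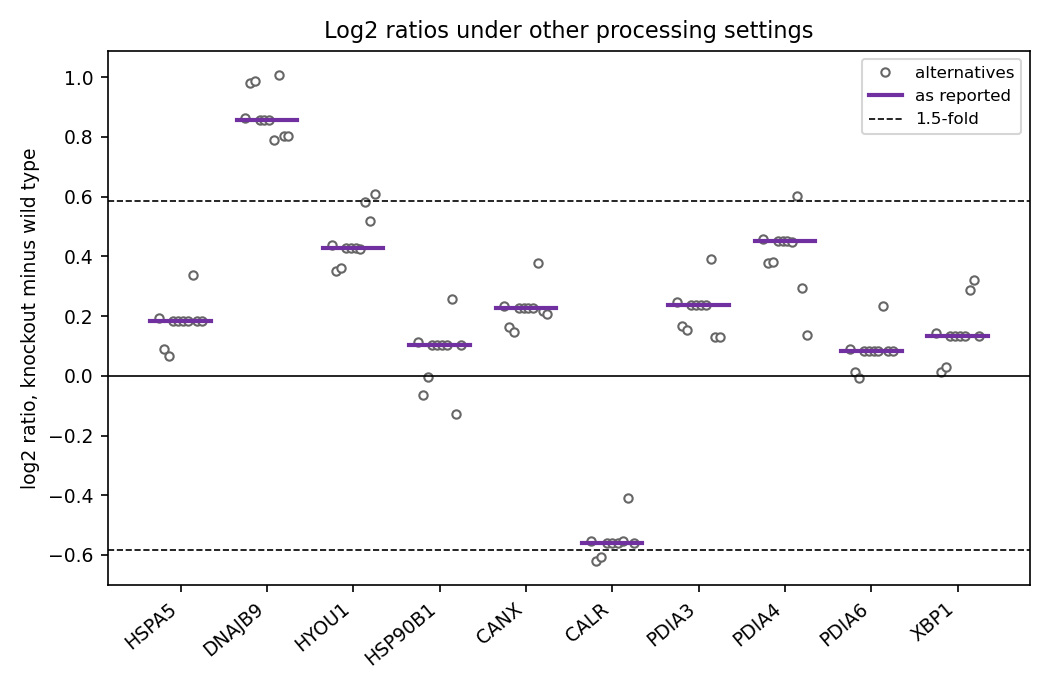
Log2 ratio (knockout minus wild type) of the 10 genes as reported (bar) and under up to 10 other processing settings (open points), with 1.5-fold as dashed lines. DNAJB9 stays above the upper dashed line, CALR lies around the lower one, and HSP90B1 and PDIA6 cross 0.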

How the data were processed

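Total RNA of each culture was biotin-labelled by a 3′ method and put on a 1-colour Affymetrix chicken array, with 1 array for each of the 2 genotype labels. The deposited table gives linear intensities, which the submitters' processing notes credit to MAS5; version, scaling target and detection calls: not given in the sources used here. Because MAS5 multiplies a whole array by 1 factor, trends with brightness remain.

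Of 38535 probe sets 96 were controls; the platform's annotation named 1 gene for 27178, several for 177 (not used for names) and no gene for 11180. Gene identifiers of 26863 were found in RefSeq genes of GRCg7b. A floor was set at 58.3, the 50th percentile of the signals without controls, lower values were raised to it, and log2 was taken. A gene was given its brightest probe set and counted as measured if that exceeded the floor in either genotype. A fold or log2 ratio against a value under the floor is a bound. This also holds for another probe set of each of MBTPS2, ERN1, NFYA, NFYC, SPCS1, SEC24D and STIM1. It holds likewise for another probe set of ERO1A, SIL1, SEC63, UGGT2, EDEM3 and ITPR1. Lists were matched by symbol. No test was made. Named were all 10 genes, both H2A.Z genes, the 5 largest ratios of each other ER list, and all sensors and plasma cell factors; CD79B and CD3D were chosen after their values were seen. The members and lists were chosen with earlier results of these data known. The computation (Python 3.11.15, pandas 2.3.3) was checked on simulated data. The number of arrays limits the precision.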

Additional observations from a re-analysis of the deposited data

How the results depend on the processing

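No paired analysis was possible because each group has 1 array. The results were 43 in all, recomputed under 9 alternatives and under 1 chosen after seeing the data, the alignment of the arrays' median log2 signals. Of 429 recomputed values 388 stayed close to the reported value and 41 moved. For a gene, close meant within the SD between probe sets of 0.41. For a median it meant that SD over the root of the number of genes, and for a count 1.5 times. A change of sign was looked for only in ratios past 1.5-fold, which left DNAJB9 alone, and it kept its sign. HSP90B1 fell below 0 in 3 settings and PDIA6 in 1. The SD of 0.41 exceeds most ratios of the 10 chaperone and XBP1 genes, so it says nothing about how stable they are. The largest change of PDIA4 was from 0.45 to 0.14 without shared probe sets, and that of HSP90B1 from 0.10 to -0.13 with the median over probe sets. Both exceed the SD of 0.22 between bright probe sets. That SD is of 1 ratio, so it understates the error of such a change, and the second probe set of HSP90B1 was dim.

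Aligning the medians shifted every ratio by 0.15, and the median of all genes from 0.02 to 0.17. The chaperone median went to 0.36, still 0.19 above that of all genes, with 2 of 10 genes at least 1.5-fold higher (DNAJB9 and PDIA4). Medians became 0.24 for the calcium store, 0.21 for co-chaperones and for ER exit, -0.092 for thiol oxidation, 0.20 for the translocon list, 0.14 for degradation and 0.54 for the sensors. Genes at least 1.5-fold higher numbered 1840 over all genes (38.1% of genes past 1.5-fold were lower, against 56.0% as reported), 1 for ER exit, 2 for the translocon list, 1 for the glycoprotein cycle and 1 for plasma cell factors. Genes at least 1.5-fold lower numbered 1133 over all genes, 0 for the translocon list and the glycoprotein cycle and 1 for degradation and plasma cell factors. These follow from the shift itself.

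After quantile normalization or loess 1 of the 10 genes was at least 1.5-fold lower (CALR), against 1350 of 9464 and 1356 of 9486 over all genes. In both, 1 gene of the glycoprotein cycle and 1 plasma cell factor were at least 1.5-fold higher. Over all genes 1340 of 9464 and 1319 of 9486 were. After the former 0 of the glycoprotein cycle were lower by as much. The chaperone median was 0.13 and 0.11. The floor at the 25th percentile gave 2283 higher and 2403 lower genes of 12063 measured, with 1 higher for ER exit and 2 for thiol oxidation. At the 75th it gave 490 and 804 of 5860 measured, with 1 lower plasma cell factor and 1 lower sensor. More or fewer dim genes enter by construction. The pseudocount left 1 lower plasma cell factor, against 1355 of 9486 over all genes. The median over probe sets gave 1 higher gene each for the calcium store and degradation and 0 lower co-chaperones. Over all 9486 genes it gave 992 higher and 1459 lower. Without shared probe sets 2 of 9 measured chaperone genes were at least 1.5-fold higher (DNAJB9 and HYOU1), against 1025 of 7588 over all genes, and CALR had no value. By the same fold 1 translocon gene was higher and 1 plasma cell factor lower, where 1214 of 7588 over all genes were lower. The co-chaperone median was -0.12. The cause of these was not tested.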
